A study of Mus musculus with 8 samples.

Results

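Transcription regulators that mark the layers of the cerebral cortex were examined in single-nucleus ATAC-seq, which measures open chromatin in single nuclei by cutting accessible DNA with a transposase. The 7 genes were *Fezf2*, *Bcl11b*, *Cux1*, *Cux2*, *Sox5*, *Tle4* and *Rorb*, chosen by name. Peaks of all samples were merged where they overlapped, and each merged region that touched the GRCm38 body of one of these genes or the 20 kb upstream of it was taken as an element of that gene. This gave 518 elements of 292532 merged regions in all. They divided into 3 for *Fezf2*, 20 for *Bcl11b*, 88 for *Cux1*, 63 for *Cux2*, 273 for *Sox5*, 34 for *Tle4* and 37 for *Rorb*.

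The samples came from wild-type (WT) mouse embryo brains with no treatment given in the labels, and no strain is named there. The cortex (CTX) was sampled once at E12.5 (CTX_1) and once at E14.5 (CTX_2), where E is the embryonic day. The medial, lateral and caudal ganglionic eminences (MGE, LGE and CGE, together the GEs) were sampled 2 times each at E12.5. Age and sample cannot be told apart within the CTX, since each age is 1 sample. The GEs were all E12.5, so region and age cannot be told apart in CTX_2 against the GEs. Comparisons that use both CTX samples carry this age difference in part. The labels do not say whether samples of a region came from separate embryos, so p-values measure the spread between these samples. Counts were summed over the nuclei of a sample, and fewer nuclei of a type cannot be told apart from less accessibility per nucleus.

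Neurons of the neocortex are born from progenitors of the dorsal telencephalon in an inside-out order, deep layers first, and each layer comes to express its own regulators. *Fezf2* encodes a zinc finger factor that specifies subcerebral projection neurons of layer 5, and *Bcl11b* (Ctip2) a zinc finger factor that acts downstream of it in corticospinal neurons and is also used by striatal neurons born in the LGE. *Sox5* encodes an SOX factor of subplate and deep-layer neurons, and *Tle4* a Groucho-family corepressor of layer 6 corticothalamic neurons. *Cux1* and *Cux2* encode cut homeodomain factors of the upper layers, and *Rorb* an orphan nuclear receptor of layer 4. The GEs give rise to GABAergic neurons.

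Depth ranged from 77387940 to 138873845 counts and from 3465 to 6845 nuclei per sample. Pairs of samples shared 15 to 56 cell barcodes. CTX_1 had the longest total peak length at 168.23 Mb and LGE_1 the shortest at 87.17 Mb, and a count exists only where a sample had its own peak. The labels were checked at promoters of marker genes. The 6 pallial markers summed to 816 and 589 counts per 1000000 (CPM) in CTX against 220 to 365 in the GEs. *Emx1* and *Emx2*, of dorsal progenitors, were above all GE samples in both CTX samples (109.6 and 127.6 CPM, and 197.8 and 346.3). The neuronal markers were high in CTX_1 and in or near the GE range in CTX_2. *Neurod2* had 162.7 CPM in CTX_1, 15.5 in CTX_2 and 10.1 to 20.7 in GEs, *Neurod6* had 129.9, 9.74 and 1.05 to 9.66, and *Tbr1* had 151.2, 49.6 and 42.6 to 107.6. Over its whole gene body *Neurod6* stood above the GEs in CTX_2 as well, at 41.7 against 1.05 to 11.3. *Neurod2* and *Tbr1* stayed inside the GE range over their bodies in CTX_2, at 16.4 against 10.9 to 20.7 and 81.7 against 70.9 to 107.6. The part of these marker differences in those between CTX_1 and CTX_2 given below was not tested. The 6 subpallial GABAergic markers summed to 273 and 323 in CTX and 668 (LGE_1) to 2208 (MGE_1) in the GEs. A peak that reaches several genes enters this sum once for each, so the sums are not on the same scale in all samples. In MGE_1 *Dlx1* and *Dlx2* both had 535.1 CPM, whereas in LGE_1 they had 140.3 and 203.3. *Gad1* had 56.1 and 55.3 in CTX and 91.1 to 156.3 in the GEs. *Gad2* had 31.3 and 34.1 in CTX and 66.7 to 106.0 in the GEs. The 3 MGE markers stood at 891 and 712 in MGE and at 79.1 to 137 in the other samples, whereas the 3 LGE markers (142 and 265 in LGE, 221 and 232 in MGE) and the 3 CGE markers (281 and 619 in CGE, 350 in CTX_2) did not single out their region. Microglial markers were at 1.15 to 10.1, endothelial at 46.6 to 64.1, erythroid at 36.2 to 50.1 and mural at 31.9 to 64.6. Their part in the results was not tested.

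All 7 genes lie on the minus strand. In GRCm38 the gene bodies are *Fezf2* chr14:12342094-12348189, *Bcl11b* chr12:107910403-108003602, *Cux1* chr5:136248135-136567490, *Cux2* chr5:121856366-122050102, *Sox5* chr6:143828425-144781977, *Tle4* chr19:14448150-14598051 and *Rorb* chr19:18930605-19111196. Elements are numbered along the chromosome within each gene. Of the 518, 13 lay within 1 kb of a start site of a protein-coding transcript (promoter elements), 41 touched another exon, 447 were intronic and 17 were upstream. Their median width was 644.5 bp.

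Sequences are shown for the *Fezf2* promoter, whose element was the one promoter element called different between CTX and GEs, and for the centres of 6 elements on which the comparisons below turn. The *Fezf2* promoter is chr14:12345816-12346115 in GRCm38, read on the gene's strand (RefSeq), and the 6 centres are 300 bases each on the plus strand. Capitals mark matches on either strand to CAGATG (an E-box of neurogenic bHLH factors), TAATTA (homeodomain) or TTGGCA (nuclear factor I site), and 3 of the 7 sequences hold none of these. In Tle4_e27 the E-box and the nuclear factor I site overlap.
Fezf2 promoter: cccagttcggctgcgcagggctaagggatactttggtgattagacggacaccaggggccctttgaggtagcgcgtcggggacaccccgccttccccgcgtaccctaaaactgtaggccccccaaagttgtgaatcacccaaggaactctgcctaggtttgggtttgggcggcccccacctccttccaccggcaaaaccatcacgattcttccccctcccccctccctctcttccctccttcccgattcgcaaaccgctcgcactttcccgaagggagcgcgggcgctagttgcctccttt
Bcl11b_e19, chr12:108012243-108012542: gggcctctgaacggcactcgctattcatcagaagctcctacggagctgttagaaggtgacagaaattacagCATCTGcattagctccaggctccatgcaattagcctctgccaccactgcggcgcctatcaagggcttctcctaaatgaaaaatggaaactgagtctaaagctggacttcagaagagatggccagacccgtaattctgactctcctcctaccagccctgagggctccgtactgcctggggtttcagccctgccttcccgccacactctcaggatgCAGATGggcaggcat
Cux1_e23, chr5:136357483-136357782: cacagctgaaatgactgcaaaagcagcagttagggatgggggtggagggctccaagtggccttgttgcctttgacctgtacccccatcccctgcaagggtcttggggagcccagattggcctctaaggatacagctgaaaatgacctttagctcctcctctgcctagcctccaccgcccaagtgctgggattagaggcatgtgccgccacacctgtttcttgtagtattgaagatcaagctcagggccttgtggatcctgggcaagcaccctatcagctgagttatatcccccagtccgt
Sox5_e169, chr6:144343330-144343629: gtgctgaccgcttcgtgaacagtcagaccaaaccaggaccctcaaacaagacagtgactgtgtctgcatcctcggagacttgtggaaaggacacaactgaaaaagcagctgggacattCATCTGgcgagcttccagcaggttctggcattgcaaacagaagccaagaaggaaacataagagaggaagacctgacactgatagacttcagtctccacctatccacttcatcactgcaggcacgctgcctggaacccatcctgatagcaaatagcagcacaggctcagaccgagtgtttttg
Sox5_e250, chr6:144681366-144681665: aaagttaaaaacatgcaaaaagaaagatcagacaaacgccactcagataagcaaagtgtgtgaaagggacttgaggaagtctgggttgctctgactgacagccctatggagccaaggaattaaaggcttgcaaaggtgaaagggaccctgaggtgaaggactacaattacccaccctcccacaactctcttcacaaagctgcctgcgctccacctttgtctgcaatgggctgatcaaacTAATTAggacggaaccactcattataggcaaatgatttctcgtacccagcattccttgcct
Tle4_e27, chr19:14566124-14566423: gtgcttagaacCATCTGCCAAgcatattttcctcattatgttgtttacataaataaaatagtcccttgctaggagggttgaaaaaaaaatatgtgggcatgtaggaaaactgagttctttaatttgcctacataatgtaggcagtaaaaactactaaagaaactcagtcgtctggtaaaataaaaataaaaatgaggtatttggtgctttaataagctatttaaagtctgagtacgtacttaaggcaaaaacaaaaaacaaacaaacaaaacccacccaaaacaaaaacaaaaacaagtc
Rorb_e26, chr19:19058607-19058906: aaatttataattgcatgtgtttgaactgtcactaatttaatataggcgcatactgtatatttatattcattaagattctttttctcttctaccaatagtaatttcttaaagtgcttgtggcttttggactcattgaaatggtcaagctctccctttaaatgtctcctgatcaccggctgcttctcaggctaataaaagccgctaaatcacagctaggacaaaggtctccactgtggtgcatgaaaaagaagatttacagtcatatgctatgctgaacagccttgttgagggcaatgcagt

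Which elements already had a peak in the embryonic CTX, and which also had one in the GEs, was asked first, and an element is called open in a sample where that sample had a peak in it. CTX_1 had 362 open elements of the 518 and CTX_2 had 244. The GE samples had between 154 (LGE_1) and 307 (CGE_2). Of all regions within the same windows of 21911 protein-coding genes, 61.5% had a peak in CTX_1 and 56.7% in CTX_2, against 69.9% and 47.1% of these elements. In MGE_1 and MGE_2 the share of all such regions was 37.8% and 55.4%, in LGE_1 and LGE_2 35.2% and 48%, and in CGE_1 and CGE_2 48.6% and 62.1%. The elements' own shares there were 40.5% and 53.3%, 29.7% and 45.8%, and 41.9% and 59.3%. Numbers of open elements below therefore carry the general difference between samples. Peaks were present in both CTX samples in 36.5% of the elements (41.3% of the regions in gene windows) and in all 8 samples in 119 (22.97%, against 26.6% of the 181878 regions in gene windows). All 6 GE samples had a peak in 134 elements (25.9%, against 29.2%). A peak in a CTX sample and in at least 1 GE sample was present at 270 elements (52.1%, against 53.2%).

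Every one of the 7 genes had elements open in both CTX samples and in GEs. *Bcl11b* had 11 of 20 elements open in all 8 samples, 13 open in all 6 GE samples and no element limited to CTX. With open set at 5 CPM or more, 5 of the 20 were open in all 8 samples and 1 in both CTX samples and no GE sample. It had 15 open elements in CTX_1 and 12 in CTX_2, against 20 and 18 in the MGE samples and 14 to 18 in LGE and CGE. *Cux1* had 50 and 41 open elements in CTX and 23 (LGE_1) to 56 (CGE_2) in GEs. *Cux2* had 40 and 38 in CTX and 31 (LGE_1) to 47 (CGE_2) in GEs, so neither upper-layer gene stood outside the GE range.

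*Sox5* had 213 open elements in CTX_1, 114 in CTX_2 and 62 to 142 in GEs, so CTX_2 lay inside the GE range. These were 78% of its elements in CTX_1 and 41.8% in CTX_2, above and below the 61.5% and 56.7% of all regions in gene windows. *Tle4* had 25 and 22 in CTX and 12 to 19 in GEs, with both CTX samples above all GE samples. As shares these were 73.5% and 64.7% in CTX, against the same 61.5% and 56.7%, and 35.3% to 55.9% in GEs, against 35.2% to 62.1%. *Rorb* had 17 and 14 in CTX and 7 to 23 in GEs, and 15 of its 37 elements (40.5%, against 23% of all regions in gene windows) were open in a GE sample and in neither CTX sample. Of the 37, 16 had a peak in a single sample only (43.2%, against 34.2%). With open set at 5 CPM or more, *Rorb* had 5 and 2 open elements in CTX and 3 to 5 in GEs. *Fezf2* had 2 and 3 in CTX and 1 to 3 in GEs.

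**Figure D1:**
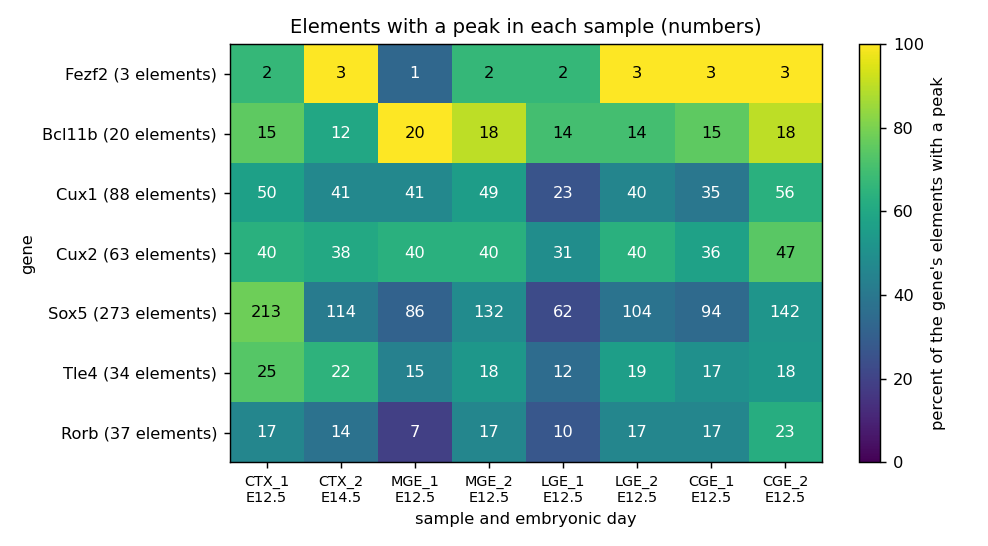
Number of elements with a peak, by gene (rows) and sample (columns, with embryonic day), coloured by the percent of the gene's elements. *Sox5* shows 213 open elements in CTX_1 against 114 in CTX_2, and *Tle4* 25 and 22 in CTX against at most 19 in a GE sample.

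Elements open in CTX and in no GE sample numbered 147 (28.4%, against 23.8%), of which 115 were open in CTX_1 alone (22.2%, against 13.5% of all regions in gene windows) and 22 in CTX_2 alone (4.25%, against 7.32%). *Sox5* held 86 of the 115. Both CTX samples and no GE sample were open at 10 elements (1.93%, against 2.89%), 7 in *Sox5*, 2 in *Tle4* and 1 in *Cux1*. The element with the most counts among these 10, singled out after its values were seen, was Sox5_e163 (chr6:144321575-144323238, intronic), with 26.5 CPM from 2860 counts in CTX_1, 0.637 CPM in CTX_2 and no peak in any GE sample. All 6 GE samples and neither CTX sample were open at 2 elements (0.386%, against 0.752%), Cux1_e31 and Sox5_e51. The longer peaks of CTX_1 move with these counts, and their part was not tested.

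For regions in general, start sites are those of any transcript of any protein-coding gene. Promoter elements use only the gene's own protein-coding transcripts, so the classes compared are not the same. Of the 13 promoter elements, 9 had a peak in all 8 samples, at least 1 for every gene (69.2%, against 67.1% of the regions in gene windows within 1 kb of a start site). The exceptions were Rorb_e17, open in 7 samples, and 3 short elements at internal start sites of *Cux1*, Cux1_e24, Cux1_e25 and Cux1_e30, open in 1, 6 and 3 samples and overlapping the gene Gm16599. *Sox5* had its promoter element, Sox5_e137 (chr6:144199520-144212381), around start sites at 144209452 to 144209568. No element covered the start site of the RefSeq promoter at chr6:143947057-143947356, which belongs to the short form of the gene.

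Per length, the *Tle4* promoter element Tle4_e34 was the most accessible of the 13, at 23.2 and 25.4 CPM per kb of peak in CTX and 29.8 to 39.1 in GEs. The *Fezf2* element had 17.5 CPM per kb in CTX_1, 25.3 in CTX_2, close to the *Tle4* value there, and 7.65 to 11.5 in GEs. The *Cux1* element Cux1_e86 had 12.9 and 13.5 CPM per kb in CTX and 14.1 to 21.1 in GEs. The widest elements stood at *Bcl11b* (Bcl11b_e17, 18268 bp), *Fezf2* (14758 bp) and *Sox5* (12862 bp), where the median of all tested regions was 1533 bp.

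The level of open chromatin in CTX was next compared with that in the GEs, at the 68274 regions with a peak in all 8 samples, 119 of them elements of the 7 genes. Elements open in some samples only entered an alternative fit, given below. CPM are scaled to the counts in these regions and give levels only. The counts themselves were fitted over all of these regions with edgeR's quasi-likelihood test. A region was called where p, adjusted by Benjamini-Hochberg over all regions, was 0.05 or lower. Of the 119, 31 were called (26.1%), 20 higher and 11 lower in CTX. Over all regions 14.9% were called, 9.49% higher and 5.39% lower. The median log2 fold was 0.20 over the 119 and 0.03 over all regions. With all regions that had a peak in 2 or more samples, where a sample with no peak counts as 0, 311 elements were tested and 21 called (6.75%, against 5.97% of 178155 regions), 15 higher and 6 lower. Of those 21, 16 were among the 31 and 5 were elements not open in all 8 samples. At these 5 the 0 of samples without a peak enters the call. Sox5_e51, 1 of them, had a peak in all 6 GE samples and in neither CTX sample, so its call only restates that. The calls lost in that fit included those of Cux1_e73, Cux2_e17, Rorb_e26, Tle4_e27, Tle4_e31, Sox5_e189 and Sox5_e271, described below.

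Of the 9 promoter elements 1 was called (11.1%, against 5.39% of all regions within 1 kb of a start site), and of the other 110 elements 30 were (27.3%, against 18.1%). The start sites differ between elements and all regions as said above. Both CTX samples lay above all 6 GE samples at 25 of the 119 (21%, against 10.8% of all regions) and below all 6 at 20 (16.8%, against 14.4%). A sample's CPM in a region can grow with the length its peaks cover, so the fit was repeated with an offset for covered length. This called 20 of the 119 (9.17% of all regions), and 16 of the 31 kept their call. Leaving out any 1 sample kept the call of 10 of the 31, namely Fezf2_e1, Cux1_e13, Cux1_e23 and 7 elements of *Sox5*. Over the 7 genes, *Sox5* had 13 of 48 called (10 higher, 3 lower), *Cux2* 9 of 23 (6 and 3), *Cux1* 5 of 19 (1 and 4), *Tle4* 2 of 11 (both higher), *Rorb* 1 of 6 (lower) and *Bcl11b* 0 of 11. The 11 *Bcl11b* elements included 2 called with the offset and 2 called by DESeq2.

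**Figure D2:**
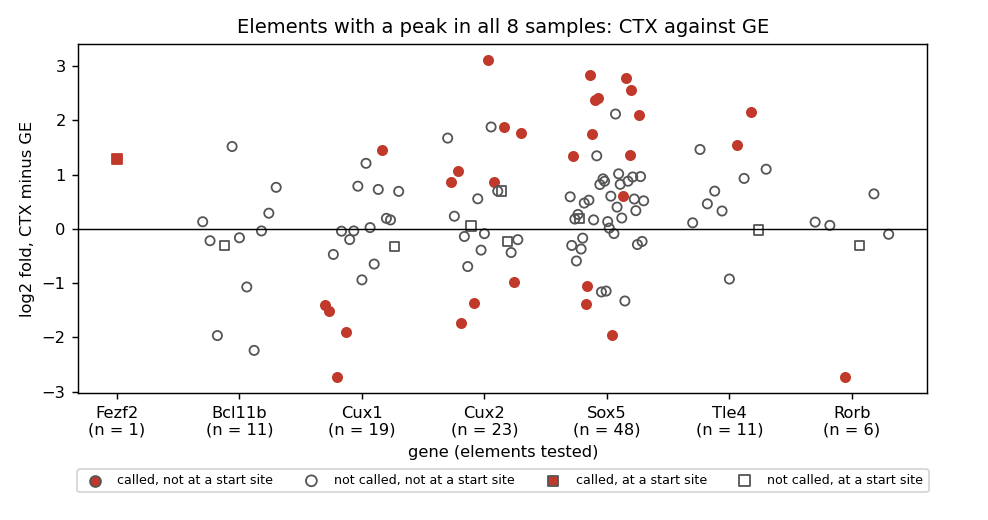
Log2 fold of CTX minus GE (vertical axis) for each of the 119 elements with a peak in all 8 samples, by gene. Filled points are called at an adjusted p of 0.05 or less and squares are promoter elements; the *Fezf2* promoter element at 1.29 is the single filled square.

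*Fezf2*, the layer 5 regulator, was more accessible in CTX. Its promoter element Fezf2_e1 (chr14:12336393-12351150), which spans the whole gene, had 257.9 CPM in CTX_1 and 371.1 in CTX_2, 113.0 and 111.3 in MGE, 140.1 and 148.4 in LGE and, for CGE, 157.2 and 140.2. Both CTX samples lay above every GE sample, and every GE sample still had over 100 CPM. The mean was 314.5 ± 80.1 CPM in CTX (SD, n = 2) and 135 ± 18.8 in the GEs (SD, n = 6), a log2 fold of 1.29 (edgeR adjusted p = 0.00367, SE 0.15). The fold was 1.22 with the offset for covered length (edgeR adjusted p = 0.00268), and the covered length ranged from 12223 to 14717 bp. Set against the GEs alone, CTX_1 gave 0.99 and CTX_2 1.57. The other *Fezf2* elements, Fezf2_e2 and Fezf2_e3, lay at -5844 and -17776 bp from the start site (negative is upstream) and were open in 5 and 6 samples. Fezf2_e3 had 1.77 and 3.12 CPM in CTX and no peak in either MGE sample.

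*Sox5*, the deep-layer and subplate regulator, held the most called elements but also the most tested. Its share called was 27.1%, against 39.1% for *Cux2* and 26.1% over the 7 genes. Its promoter element Sox5_e137 had 110.9 CPM in CTX_1 and 58.3 in CTX_2, on either side of the 70.3 to 82.5 of the GE samples (log2 fold 0.19, edgeR adjusted p = 0.655). Its peak covered 12862 bp in CTX_1 and 6862 bp in CTX_2, and per kb of peak both CTX samples, at 8.62 and 8.50 CPM, lay inside the GE range of 8.36 to 13.3. The element was called higher without CTX_2 (log2 fold 0.57, edgeR adjusted p = 0.0222), and the fold turned to -0.31 with the offset (edgeR adjusted p = 0.266). Elements classed as intronic differed more, among them some that lie upstream of all protein-coding start sites used. Sox5_e169, the called element with the largest fold, had 11.4 CPM in CTX_1 and 4.25 in CTX_2, 0.41 and 1.03 in MGE, 1.57 and 1.5 in LGE and, for CGE, 1.60 and 1.17. Its log2 fold was 2.82 (edgeR adjusted p = 0.00793, SE 0.43), and 1.63 with the offset.

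Sox5_e57 and Sox5_e194, named after their values were seen for the lowest adjusted p among the *Sox5* elements, were high in both CTX samples. Sox5_e57 (chr6:143994486-143995916) had 31.6 and 25.03 CPM in CTX, 2.60 and 2.62 in MGE, 6.99 and 5.75 in LGE and, for CGE, 8.04 and 7.18. Each CTX sample had over 3 times the highest GE value. The log2 fold was 2.55 (edgeR adjusted p = 0.00222, SE 0.17), and 2.00 with the offset. Sox5_e194 (chr6:144451438-144455286) had 38.9 and 53.1 CPM in CTX and 4.94 (MGE_2) to 10.7 (LGE_1) in GEs. Its log2 fold was 2.41 (edgeR adjusted p = 0.00266, SE 0.22), and 1.95 with the offset. The calls of all 3 of these elements held without any 1 sample.

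In the opposite direction, Sox5_e229 (chr6:144610822-144612105) was the *Sox5* element with the largest fall in CTX. It had 5.59 CPM in CTX_1 and 2.88 in CTX_2, 17.8 and 22.3 in MGE, 15.7 and 13.4 in LGE and, for CGE, 17.4 and 16.02. The groups did not overlap, and the log2 fold was -1.95 (edgeR adjusted p = 0.00836, SE 0.30), -1.42 with the offset. The same gene therefore held elements higher and elements lower in CTX. Of its 13 called elements 1, Sox5_e271, changed sign with the offset (log2 fold 0.61 to -0.44), and it was named after its values were seen. Sox5_e271 lies at the 5′ end of the gene body used, upstream of all protein-coding start sites used, and so was not a promoter element.

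*Cux2*, an upper-layer gene, had 9 of 23 elements called, of which 1 kept its call with the offset and none kept it through every leave-one-out fit. Its 3 promoter elements were not called. Cux2_e57, at the 5′ start site and overlapping Gm15637, had 35.1 and 32.4 CPM in CTX and 32.2 to 57.4 in GEs (log2 fold -0.23, edgeR adjusted p = 0.511). Cux2_e21 had 35.2 and 21.1 against 23.5 to 34.4, and Cux2_e46 had 8.56 and 2.99 against 2.38 to 5.62. Cux2_e32 (chr5:121958555-121962231, intronic) had the largest fold of the 119 elements, at 22.0 CPM in CTX_1, 3.43 in CTX_2 and 0.93 to 1.84 in the 6 GE samples. Its log2 fold was 3.11 (edgeR adjusted p = 0.0115, SE 0.53). The peak covered 3677 bp in CTX_1, 950 bp in CTX_2 and 386 to 1161 bp in GEs, and with the offset the fold was 0.79 (edgeR adjusted p = 0.223). Without CGE_2 the edgeR adjusted p was 0.050044.

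Cux2_e17 fell in CTX, with 0.63 and 0.89 CPM against 1.88 to 3.93 in GEs (log2 fold -1.73, edgeR adjusted p = 0.0204). It lost its call with the offset (-0.69, edgeR adjusted p = 0.117) and without LGE_1, LGE_2 or CGE_2 (edgeR adjusted p 0.0529 to 0.0639).

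*Cux1*, its upper-layer paralog, was called lower in CTX at 4 of its 5 called elements. Its 5′ promoter element Cux1_e86 had 57.6 and 58.9 CPM in CTX, below the 63.2 to 95.0 of the GE samples, and was not called (log2 fold -0.32, edgeR adjusted p = 0.226). Cux1_e23 (chr5:136356588-136358677), intronic and 1341 bp inside an internal start site, had 2.10 and 1.01 CPM in CTX, 21.2 and 20.4 in MGE, 6.76 and 6.50 in LGE and, for CGE, 9.53 and 8.14. All GE samples lay above both CTX samples, and MGE lay highest. The log2 fold was -2.72 (edgeR adjusted p = 0.0048, SE 0.34), -1.47 with the offset, and the call held without any 1 sample. It overlaps Gm16599, and reads without strand cannot be assigned to either gene. Cux1_e73 was the element called higher, at 3.86 and 6.85 CPM against 1.79 to 2.29 (log2 fold 1.45, edgeR adjusted p = 0.0186; 1.00 with the offset, adjusted p = 0.0532). Without CTX_2, LGE_1, LGE_2, CGE_1 or CGE_2 its call was lost (edgeR adjusted p 0.0538 to 0.0688).

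*Tle4*, the layer 6 corepressor, was called higher in CTX at 2 intronic elements. Its promoter element did not differ beyond the spread, at 135.6 and 158.6 CPM against 136.5 to 172.2 in GEs (log2 fold -0.02, edgeR adjusted p = 0.958). Tle4_e31 had 6.59 and 16.4 CPM in CTX and 1.22 to 4.39 in GEs (log2 fold 2.16, SE 0.45, edgeR adjusted p = 0.0221; 0.71 with the offset, adjusted p = 0.13). That call was lost without CTX_2, MGE_1, CGE_1 or CGE_2 (edgeR adjusted p 0.0659 to 0.0752). Tle4_e27 (chr19:14564740-14567807) had 36.0 and 94.6 CPM in CTX, 8.05 and 11.4 in MGE, 34.3 and 41.6 in LGE and, for CGE, 34.6 and 35.5. CTX_1 lay within the LGE and CGE values and CTX_2 above them, while MGE was lowest. The log2 fold was 1.54 (edgeR adjusted p = 0.0221, SE 0.32), 1.09 with the offset, and the call was lost without CTX_2, MGE_1, MGE_2, LGE_1, CGE_1 or CGE_2 (edgeR adjusted p 0.050016 to 0.0713).

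*Rorb*, the layer 4 receptor, was called lower in CTX at 1 element and *Bcl11b* at none. Rorb_e26 (chr19:19057578-19059935, intronic) had 7.07 and 1.15 CPM in CTX, 13.7 and 18.0 in MGE, 41.0 and 47.1 in LGE and, for CGE, 32.8 and 31.8. The order from CTX through MGE and CGE to LGE had no overlap between regions. The log2 fold was -2.73 (edgeR adjusted p = 0.0318, SE 0.64), -2.04 with the offset, and the call was lost without any 1 of the 6 GE samples (edgeR adjusted p 0.0603 to 0.0842) and with a replicate block (edgeR adjusted p = 0.0508). The 5′ promoter element Rorb_e35 had 40.2 and 40.3 CPM in CTX and 42.6 to 59.96 in GEs (log2 fold -0.31, edgeR adjusted p = 0.102). The fold was 0.40 with the offset, and DESeq2 called the element lower (adjusted p = 0.0342). The *Bcl11b* promoter element Bcl11b_e17 had 93.7 and 95.1 CPM in CTX and 103.3 to 146.6 in GEs, with both CTX samples below all GE samples (log2 fold -0.31, edgeR adjusted p = 0.158).

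**Figure D3:**
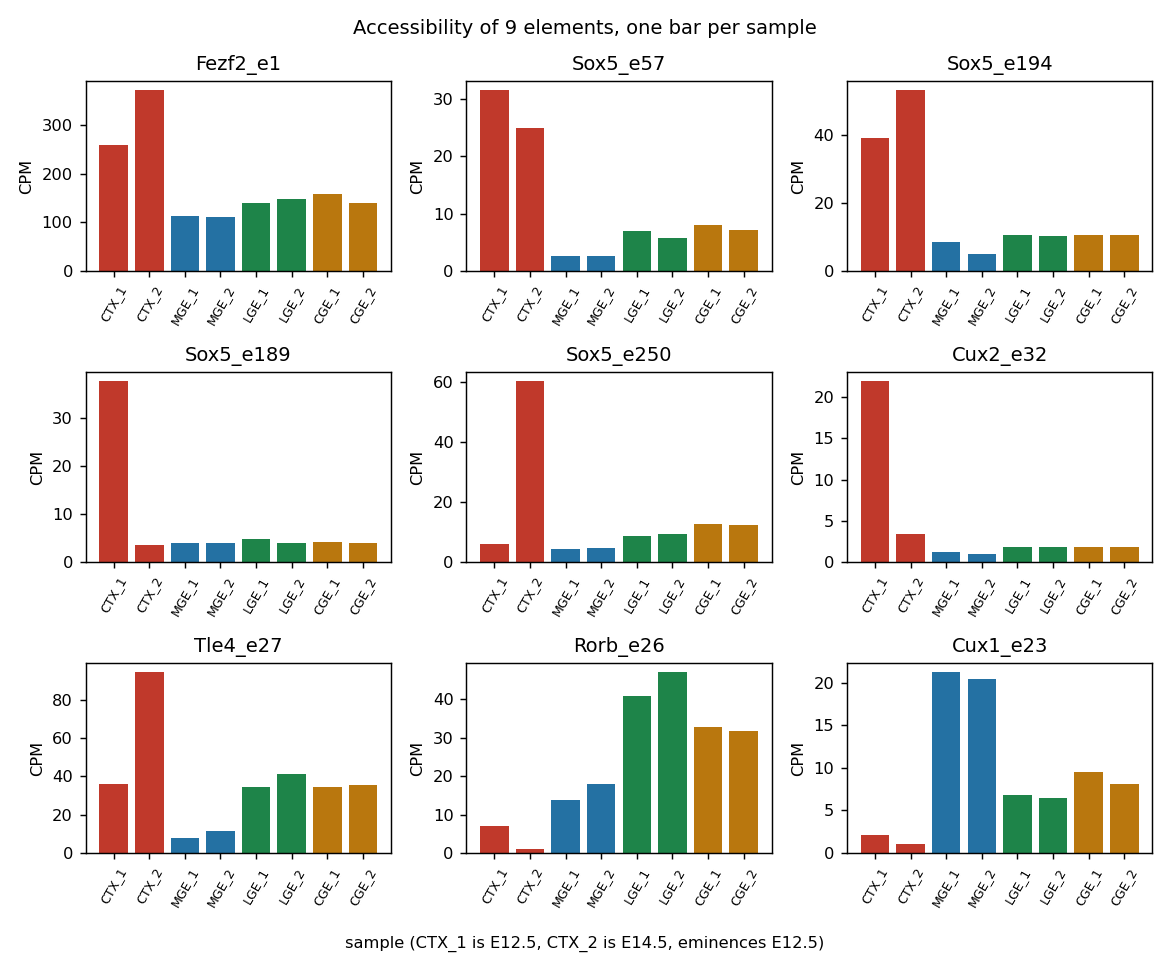
Accessibility in CPM (vertical axes from 0) of 9 elements, 1 bar for each of the 8 samples. Fezf2_e1, Sox5_e57 and Sox5_e194 are high in both CTX samples, Sox5_e189 and Cux2_e32 mainly in CTX_1, Sox5_e250 in CTX_2, and Rorb_e26 and Cux1_e23 in the GEs.

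The CTX samples were then set apart, each against the same 6 GE samples, with a lone CTX sample assumed to vary as the GE pairs do. Because they share the GE samples the counts are not independent. CTX_2 differs from the GE samples in age as well as in region. CTX_1 (E12.5) was called different at 41 of the 119 elements, 26 higher and 15 lower (26.3% of all regions were called). CTX_2 (E14.5) was called at 53, 31 higher and 22 lower (24.2% of all regions). Elements called in both had the same sign at 24 and opposite signs at 3, Cux1_e48, Cux2_e13 and Sox5_e212. *Tle4* was called higher at 5 elements in CTX_2 and at none in CTX_1, where 1 was lower; that difference between ages was not tested. At *Tle4* replicate 2 also tended to lie above replicate 1 in MGE and LGE, both at E12.5, as given below. The CTX samples lay on opposite sides of all 6 GE samples at 17 of the 119 (14.3%, against 8.34% of all regions). Per kb of peak, 6 of the 17 still did, and at 3 both CTX samples lay inside the GE range.

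The CTX pair also differed more than any GE pair. The log2 ratio of replicate 2 to replicate 1, after adding 0.5 CPM to each, had an SD over the 119 elements of 1.19 for the CTX pair, 0.55 for MGE, 0.47 for LGE and 0.32 for CGE. Over all regions these SDs were 1.02, 0.51, 0.41 and 0.38. A ratio of 4-fold or more was seen at 13 elements in CTX (10.9%, against 6.88% of all regions), 12 of them higher at E12.5, as were 3367 of the 4697 such regions in all. It was seen at 2 elements in MGE (1.68%, against 0.406% of all regions), 1 in LGE (0.84%, against 0.223%) and 0 in CGE (against 0.0425%).

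Examples of elements that differed between the CTX samples were chosen after their values were seen. Sox5_e250 (chr6:144680584-144682446, intronic, overlapping the antisense gene Sox5os3) had 5.91 CPM in CTX_1 and 60.3 in CTX_2, 4.39 and 4.72 in MGE, 8.82 and 9.40 in LGE and, for CGE, 12.7 and 12.3. CTX_1 lay within the GE values and CTX_2 far above them. It was not called over both CTX samples (log2 fold 2.11, edgeR adjusted p = 0.0673), and each CTX sample alone gave -0.39 and 3.01. In the other direction, Sox5_e189 had 37.6 CPM in CTX_1, 3.62 in CTX_2 and 3.85 to 4.76 in GEs. Its call over both samples (log2 fold 2.38, edgeR adjusted p = 0.0465) was lost without any 1 sample except CTX_2 (edgeR adjusted p 0.0967 to 0.872). Cux1_e48 had 31.4 and 1.48 CPM in CTX and 5.90 to 9.90 in GEs. Cux2_e35 had 41.4 and 4.15 in CTX and 5.20 to 7.68 in GEs, where its peak covered 3931 bp in CTX_1, 1126 bp in CTX_2 and 1074 to 1957 bp in GEs.

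**Figure D4:**
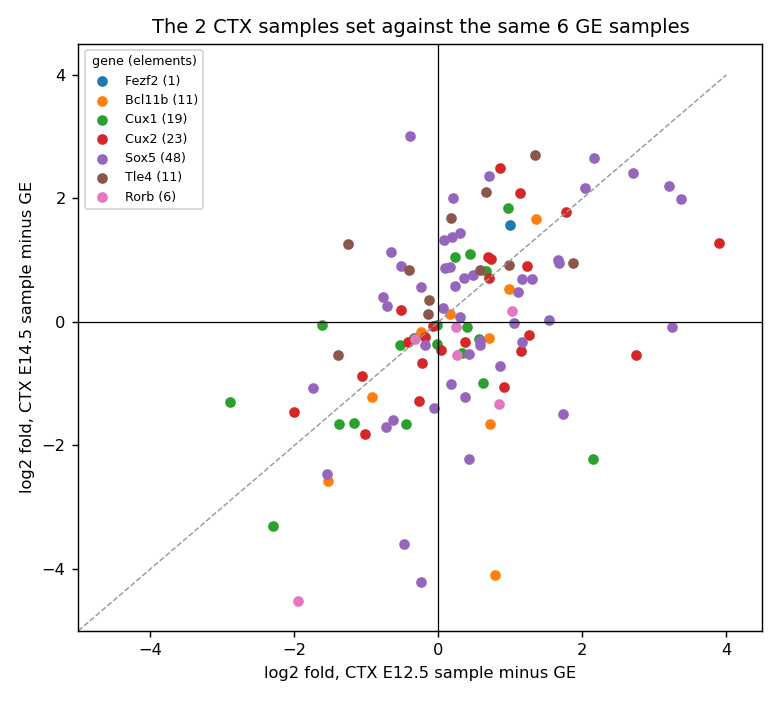
Log2 fold of the E12.5 CTX sample against the GEs (horizontal axis) and of the E14.5 CTX sample against the same GE samples (vertical axis) for the 119 elements, coloured by gene; the dashed line marks equal folds. Sox5_e250 stands at -0.39 and 3.01, Fezf2_e1 at 0.99 and 1.57 and Cux1_e48 at 2.14 and -2.22.

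Differences among the GEs were tested in the 6 GE samples, a choice made knowing from earlier results that the CTX pair spread more widely. LGE against MGE called 18 of the 119 elements, 8 higher and 10 lower (15.1%, against 10.6% of all regions). MGE against CGE called 20, 11 higher and 9 lower (16.8%, against 9.4% of all regions). LGE against CGE called 0 with edgeR (0.00293% of all regions), 15 had an unadjusted p of 0.05 or less (12.6%, against 12.1% of all regions), and DESeq2 called 4 (3.36%, against 4.03%). Neither share of the elements stood above that of all regions by more than 1 percentage point. When all 8 samples were fitted as 4 groups, LGE against MGE called 1 of the 119 (0.84%, against 0.694% of all regions) and MGE against CGE 0 (against 0.325%). The 1 was Cux1_e34 (edgeR adjusted p = 0.0422), named after its values were seen, and the other calls of both contrasts were lost in that fit. None of the 9 promoter elements was called in the 3 contrasts, and of all regions within 1 kb of a start site 2.45% were called for LGE against MGE, 2.27% for MGE against CGE and 0% for LGE against CGE, shares at which 0 of 9 says nothing about these elements.

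An intronic *Tle4* element and 2 *Rorb* elements were lower in MGE than in LGE and CGE. At Tle4_e27 the log2 fold was 1.95 for LGE against MGE (edgeR adjusted p = 0.00285, SE 0.21) and -1.78 for MGE against CGE (adjusted p = 0.00438, SE 0.21), and both calls held without any 1 GE sample but not in the fit of all 8 samples (edgeR adjusted p = 0.106 and 0.14). The other *Tle4* element called, Tle4_e1, named after its values were seen, was higher in MGE than in CGE (log2 fold 1.53, edgeR adjusted p = 0.027), a call lost without any 1 of those 4 samples. At Rorb_e26 the folds were 1.46 (edgeR adjusted p = 0.00398, SE 0.18) and -0.96 (adjusted p = 0.0177, SE 0.18), the second of which was lost without MGE_1, CGE_1 or CGE_2 (adjusted p 0.0735 to 0.0839). Rorb_e6 (chr19:18959759-18960712, exonic) had 0.49 and 1.36 CPM in MGE, 4.71 and 5.04 in LGE and, for CGE, 6.45 and 5.43. Its folds were 2.42 (edgeR adjusted p = 0.0136) and -2.64 (adjusted p = 0.0112), the latter lost without CGE_1 (adjusted p = 0.0526).

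*Cux1* went the other way, higher in MGE at all 5 of its 19 elements called against LGE and at all 4 called against CGE. Cux1_e23 had log2 folds of -1.67 for LGE against MGE (edgeR adjusted p = 0.00279, SE 0.18) and 1.31 for MGE against CGE (adjusted p = 0.0061, SE 0.18, lost without CGE_2 at 0.0533). Cux1_e44 had 7.6 and 7.47 CPM in MGE and 1.22 and 2.39 in LGE (log2 fold -2.08, edgeR adjusted p = 0.0226). It lost its call without MGE_1, MGE_2 or LGE_1 (adjusted p 0.0556 to 0.0858) and with the offset (-0.76, adjusted p = 0.143). Cux1_e53 had 2.86 and 3.71 CPM in MGE and, for CGE, 1.25 and 1.17 (log2 fold 1.51, edgeR adjusted p = 0.036), and its call was lost without any 1 of these 4 samples (adjusted p 0.0641 to 0.171). Cux2_e20 was lower in LGE, at 0.94 and 1.74 CPM, than in MGE, at 6.26 and 5.60 (log2 fold -2.17, edgeR adjusted p = 0.0119), a call lost without MGE_1 (adjusted p = 0.0530).

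At *Bcl11b*, Bcl11b_e19 (chr12:108011918-108012867), upstream at -8316 bp from the start site, had 0.64 and 0.46 CPM in MGE, 2.52 and 2.33 in LGE and, for CGE, 2.05 and 2.25. The log2 folds were 2.10 for LGE against MGE (edgeR adjusted p = 0.0154, SE 0.39, lost without LGE_1 at 0.0582) and -1.88 for MGE against CGE (adjusted p = 0.0243, SE 0.39, lost without CGE_1 or CGE_2 at 0.0989 to 0.135). With the offset they were 0.81 and -0.45, neither called, as the MGE peaks covered 235 and 360 bp against 604 to 816 bp in LGE and CGE. In CTX the same element had 2.38 CPM at E12.5 and 0.08 at E14.5, where its peaks covered 762 bp and 61 bp. The intronic element Bcl11b_e13, named after its values were seen, was higher in MGE, at 137.6 and 103.3 CPM against 73.4 and 71.6 in CGE (log2 fold 0.81, SE 0.18, edgeR adjusted p = 0.0289). Its call was lost without MGE_1, CGE_1 or CGE_2 (adjusted p 0.0836 to 0.115).

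At *Sox5*, Sox5_e98 was lower in LGE, at 7.27 and 8.13 CPM, than in MGE, at 17.7 and 20.8 (log2 fold -1.34, edgeR adjusted p = 0.00611), but covered 990 and 1414 bp in LGE against 2433 and 2438 bp in MGE and had a fold of -0.29 with the offset. Sox5_e38 was lower in MGE, at 0.56 and 1.19 CPM, than in CGE, at 2.86 and 3.52 (log2 fold -1.82, edgeR adjusted p = 0.0484). That call was lost without MGE_1, CGE_1 or CGE_2 (adjusted p 0.145 to 0.236) and with the offset (-0.44). Sox5_e57, high in CTX, was also unequal among the GEs, with MGE below LGE (log2 fold 1.26 for LGE against MGE, edgeR adjusted p = 0.0116, lost without LGE_1 at 0.0913) and below CGE (-1.47, adjusted p = 0.0078, lost without CGE_1 at 0.0555). Cux2_e1, which overlaps *Pheta1* at the 3′ end of *Cux2*, had 10.7 and 2.20 CPM in MGE and, for CGE, 0.45 and 0.52 (log2 fold 3.82, SE 0.93, edgeR adjusted p = 0.0421). It had a fold of 0.40 with the offset and lost its call without MGE_1, CGE_1 or CGE_2 (adjusted p 0.157 to 0.258).

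Counts were also summed over each whole gene with its 20 kb upstream, for 17412 genes. For genes, CPM are scaled to the counts summed over these genes, where a peak shared by genes counts for each. They are therefore not on the scale of the element CPM above. *Fezf2* and *Sox5* were called higher in CTX, 2 of the 7, where 6.29% of all genes were called. *Fezf2* had 201.1 and 303.1 CPM in CTX, 89.5 and 89.7 in MGE, 117.9 and 121.5 in LGE and, for CGE, 133.1 and 113.2. Its log2 fold was 1.27 (edgeR adjusted p = 0.0039, SE 0.14), 1.16 with the offset (adjusted p = 0.0225). *Sox5* had 874.8 and 637.1 CPM in CTX, 468.6 and 540.6 in MGE, 442.3 and 470.1 in LGE and, for CGE, 496.9 and 462.4, with both CTX samples above all GE samples. Its log2 fold was 0.74 (edgeR adjusted p = 0.0371, SE 0.16). The fold was -0.02 with the offset, as its peaks covered 219.5 kb in CTX_1, 101.8 kb in CTX_2 and 55.8 to 123 kb in GEs. The call was lost without any 1 sample except CTX_2 (edgeR adjusted p 0.065 to 0.119) and with a replicate block (0.0611).

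The other 5 genes were not called. *Tle4* had 208.5 and 332.8 CPM in CTX and 186 to 270.7 in GEs (log2 fold 0.32, edgeR adjusted p = 0.451), and *Rorb* had 69.0 and 51.5 in CTX and 53.5 (MGE_1) to 115 (CGE_1) in GEs (log2 fold -0.51, adjusted p = 0.167). *Bcl11b* had 289.3 and 232.8 in CTX and 251.8 to 392.4 in GEs, a log2 fold of -0.08 that turned to 0.20 with the offset. *Cux1* had 219.9 and 121.7 in CTX and 132.6 to 208.7 in GEs (log2 fold 0.19, edgeR adjusted p = 0.698), and CTX_1 alone against the GEs gave 0.58 (adjusted p = 0.0219). *Cux2* had 272.6 and 189.6 in CTX and 181.1 to 254.9 in GEs (log2 fold 0.30, adjusted p = 0.422). All 5 had CTX and GE values that overlapped.

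**Figure D5:**
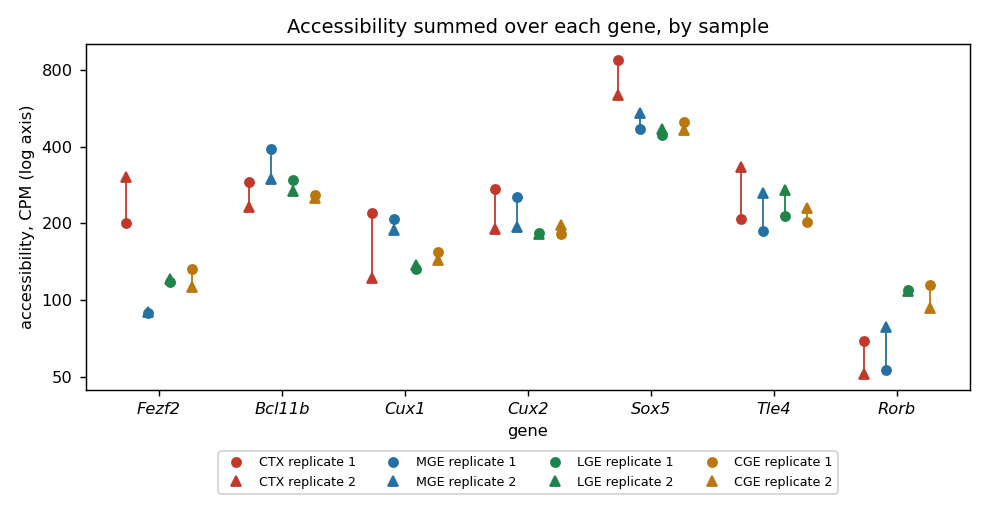
Accessibility summed over each gene and its 20 kb upstream, in CPM on a log axis, with 1 point per sample (circles replicate 1, triangles replicate 2, joined by region). *Fezf2* at 201.1 and 303.1 CPM and *Sox5* at 874.8 and 637.1 CPM in CTX stand above all GE samples.

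Other genes used to mark cortical layers and projection neurons were taken as a list of 32, all of them tested. Of these, 9 were called and all 9 were higher in CTX: 3 of 11 for upper layers, 3 of 8 for layer 5, 2 of 7 for layer 6 and 1 of 6 for the subplate. Of all genes 6.29% were called, 888 of 1095 of them higher. DESeq2 called 15 of the 32, 14 higher and 1 lower (12.6% of all genes were called). The 1 lower was *Pou3f1*, an upper-layer POU factor named after its values were seen, with 45.8 and 34.7 CPM in CTX and 47.4 to 104.5 in the GEs (log2 fold -0.71, edgeR adjusted p = 0.0597, DESeq2 adjusted p = 0.00422). Both CTX samples also lay below all GE samples at *Pou3f2* (log2 fold -0.43, edgeR adjusted p = 0.165) and *Pou3f3* (log2 fold -0.28, edgeR adjusted p = 0.373). Leaving out 1 sample ended the call of 5 of the 9, *Pcp4*, *Lhx2*, *Inhba*, *Crym* and *Zfpm2*, named after their values were seen. The median log2 fold was 0.58 over the list and -0.01 over all genes. None was called with the offset for covered length, where 20 of all genes were. The 9 included *Pcp4*, a calmodulin-binding protein of layer 5 neurons, with 55.4 and 23.5 CPM in CTX and 13.3 ± 3.69 in the GEs (SD, n = 6; log2 fold 1.71, edgeR adjusted p = 0.0128, lost without MGE_1 at 0.0530). *Unc5d*, a netrin receptor, had 268.8 and 157.7 CPM in CTX and 76.3 ± 21.3 in the GEs (SD, n = 6; log2 fold 1.59, edgeR adjusted p = 0.0121).

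The genes most like each member over the log2 CPM of the 8 samples are given as a description only, since samples of a region move together. Among the closest to *Fezf2* was *Lef1* (Pearson r = 0.984), and *Sox5* was most like *Fsip1* (0.991) and *Nmur2* (0.985). *Cux1* was most like *Acot1* (0.978) and *Acot3* (0.972), *Cux2* like *Ppfia4* (0.987) and *Cfap73* (0.984), and *Bcl11b* like *Cdk2ap1* (0.989) and *Fam131c* (0.976). *Tle4* was most like *Fam221a* (0.989) and *B4galt1* (0.973), and *Rorb* like *Slc25a16* (0.989) and *Synj1* (0.985). An r over 0.9 was reached by 45 (*Cux1*) to 238 (*Fezf2*) genes, so these are few of many.

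Short sequence motifs were counted on both strands in the central 300 bases of the 119 elements and of all 68274 regions. TAATTA was in 20 of the 119 windows (16.8%, against 9.78% of all), including 6 of the 20 elements higher and 2 of the 11 lower in CTX. CAGATG was in 28 (23.5%, against 22.2%), with 6 of the 20 and 5 of the 11. TTGGCA was in 22 (18.5%, against 16.2%), ACAATGG (SOX) in 8 (6.72%, against 4.3%), TCACACC (T-box) in 6 (5.04%, against 4.06%) and ATGCAAAT (POU octamer) in 3 (2.52%, against 2.56%). Of the 10 RefSeq promoters of the 7 genes, 2 held ACAATGG (3.66% of all 32851 promoters), 1 CAGATG (17.2%), 1 TTGGCA (14.1%) and none the other motifs. TAATTA was in 5.29% of all promoters. Of the 119 elements 110 were not promoter elements, while 50938 of the 68274 regions were not within 1 kb of a start site. The part of this unlike make-up in the TAATTA shares was not tested. The printed centres include a TAATTA in Sox5_e250 and CAGATG matches in Bcl11b_e19, Sox5_e169 and Tle4_e27.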

How the data were processed

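Nuclei of WT embryonic mouse brain regions were assayed by 10x Genomics single-nucleus ATAC-seq in 8 samples. The authors deposited, for each sample, peaks and counts per peak and nucleus; the submitters' processing notes name Cell Ranger ATAC 1.2.0 and GRCm38/mm10. Peaks were called per sample. Deposited counts were summed over nuclei (77387940 to 138873845 per sample), since nuclei are not replicates; counts came mostly in pairs, with odd entries at 9.55% to 10.4% in the samples numbered 1 and 5.17% to 5.85% in those numbered 2. Deposited matrices of transcription factor motifs per nucleus were not used, and no doublet filter was applied.

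Peaks were merged where they overlapped by 1 bp or more. The 68274 regions with a peak in all 8 samples, which held 77.8% (CTX_1) to 95.1% (MGE_1) of counts, were fitted with edgeR 4.0.16 (R 4.3.3; TMM, filterByExpr, glmQLFit and glmQLFTest): all 8 samples as 4 groups for CTX against the mean of the 3 GEs, and the 6 GE samples alone among the GEs. Genes and start sites came from GENCODE M21, promoter sequences from RefSeq. Scripts used Python 3.11.15, pandas 2.3.3 and pysam 0.24.0 and were tested on simulated data.

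The genes, gene lists and motifs, and the fit of the GE samples alone, were chosen with earlier results of these data known. Elements were named by rule (promoter elements; the called element with the largest fold in each contrast and direction; the highest mean CPM), apart from those said to be named after their values were seen. One gene among those most like a member is not reported here. Alternatives were DESeq2 1.42.0, library size, filters, an offset for covered length, a replicate block, other windows and definitions of open, and leaving out each sample.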

Additional observations from a re-analysis of the deposited data

Results flagged for a closer look

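The E12.5 and E14.5 CTX samples lay on opposite sides of all 6 GE samples at 17 elements. The difference was not tested, since each age is 1 sample. The values below are the E14.5 CPM divided by the E12.5 CPM. Per kb of peak, a scale chosen after seeing the data, the samples stayed on opposite sides at 6 of the 17, Cux1_e8, Cux1_e48, Cux2_e13, Sox5_e144, Tle4_e14 and Rorb_e18, and all 17 ratios kept their direction. At Sox5_e137, Sox5_e132 and Tle4_e12 both CTX samples lay inside the GE range per kb.

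The ratio was below 1 at 13 elements. In *Sox5* it was 0.155 at Sox5_e14 (0.860 per kb of peak), 0.323 at Sox5_e95 (0.531 per kb), 0.327 at Sox5_e132 (0.909 per kb), 0.526 at the promoter element Sox5_e137 (0.985 per kb), 0.0961 at Sox5_e189 (0.167 per kb) and 0.103 at Sox5_e212 (0.450 per kb). In *Cux2* it was 0.248 at Cux2_e13 (0.304 per kb), 0.599 at the promoter element Cux2_e21 (0.865 per kb) and 0.1 at Cux2_e35 (0.350 per kb). In *Cux1* it was 0.536 at Cux1_e8 (0.712 per kb) and 0.047 at Cux1_e48 (0.136 per kb), from 31.4 CPM at E12.5 to 1.48 at E14.5. It was 0.499 at Bcl11b_e5 (0.854 per kb), from 116.5 to 58.1 CPM, and 0.214 at Rorb_e18 (0.285 per kb).

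The ratio was above 1 at 4 elements, Sox5_e144 (1.89), Sox5_e147 (3.35), Tle4_e12 (5.52) and Tle4_e14 (2.32). Per kb of peak these were 1.78, 2.38, 1.21 and 2.11 in that order. At Tle4_e14 the CTX samples had 28.3 and 65.7 CPM around GE values of 29.4 to 52.1. Both flagged *Tle4* elements were higher at E14.5, and all flagged elements of *Cux1* and *Cux2* were higher at E12.5. This does not hold for all elements of these genes. Among those not flagged, Cux2_e55 had 9.35 CPM at E12.5 and 27.98 at E14.5, and Tle4_e10 had 3.67 and 1.88. Both flagged *Tle4* elements were also higher in replicate 2 of MGE and LGE, at E12.5. The log2 ratios of replicate 2 to replicate 1 there were 0.81 and 0.85 at Tle4_e12 and 0.52 and 0.32 at Tle4_e14.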

How the results depend on the processing

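The count of elements called in CTX against GE, 31, was 20 with the offset for covered length and between 11 and 53 with 1 sample left out; it was 45 with DESeq2, 28 with total counts as library size, 26 with a replicate block and 21 with all regions that had a peak in 2 or more samples, 16 of them among the 31. The share of the elements against that of all regions was 26.1% against 14.9% as reported, 16.8% against 9.17% with the offset, 37.8% against 23.1% with DESeq2, 23.5% against 14.2% with total counts and 21.8% against 13.7% with the block, so the rise with DESeq2 went with one over all regions. With all regions that had a peak in 2 or more samples the shares were close, at 6.75% against 5.97%. LGE against MGE, 18, gave 1 with all 8 samples fitted as 4 groups, 28 with DESeq2, 10 with the offset and 9 to 20 with 1 sample left out. MGE against CGE, 20, gave 0, 31, 12 and 3 to 22 in that order; the 3, without CGE_1, were 2.52% of the elements, against 3.07% of all regions. LGE against CGE, 0, gave 4 with DESeq2, 1 with the offset and 0 to 1 with 1 sample left out. Genes called, 2, were 1 with the offset, with a replicate block and with peaks at start sites alone, and 1 to 3 with 1 sample left out. With open set at 5 CPM or more, 38 elements were open in all 8 samples, 55 in both CTX samples, 52 in all 6 GE samples and 6 in both CTX samples and no GE sample.

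Among the promoter elements and the 7 genes, log2 folds of CTX against GE turned sign at 6 elements and 5 genes, and none of these turned values passed the threshold. Of other elements, Cux1_e48 (-2.22), Cux2_e13 (-1.05) and Sox5_e212 (-1.49) turned and passed it without CTX_1, and Sox5_e271 turned to -0.44 and the layer gene *Zfpm2* to -0.0771 with the offset without passing it; these are not all that turned. With the offset they were 0.40 at Rorb_e35, -0.31 at Sox5_e137, 0.20 at *Bcl11b*, -0.10 at *Cux1*, -0.0221 at *Sox5* and -0.29 at *Tle4*. With 1 sample left out they ranged from -0.32 to 0.37 at Cux2_e21, -0.21 to 1.26 at Cux2_e46, -0.31 to 0.57 at Sox5_e137, -0.15 to 0.13 at Tle4_e34, -0.29 to 0.0975 at *Bcl11b*, -0.35 to 0.58 at *Cux1*, -0.0289 to 0.57 at *Cux2* and -0.0159 to 0.58 at *Tle4*. *Cux1* gave -0.26 over peaks at start sites. With the offset and without CTX_1, chosen after seeing the data, they were 0.0869 at Bcl11b_e17, 0.41 at Rorb_e35 and -0.29 at Sox5_e137, and without CTX_2 0.43 and -0.31 at the latter 2. The cause was not tested.

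Same-numbered samples deviated together with correlations of -0.04 to 0.31, under 0.1 in 3 of 6 pairs of regions, so the numbers were not taken to pair the samples, although the share of odd entries split by number in all 4 regions. Among calls named, the block ended those of Rorb_e26, Sox5_e189 and Sox5_e271 (CTX against GE), Cux1_e53 (both MGE contrasts), Cux2_e1 (MGE against CGE) and the genes *Sox5*, *Crym* and *Zfpm2*.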
